A study of Mus musculus with 3 samples.

Results

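Border-associated macrophages are the macrophages of the meninges and of the spaces around brain vessels. In these mouse medial prefrontal cortex libraries they were chosen by measured RNA counts, as barcodes with at least 500 detected genes and at most 15% mitochondrial counts that carried 4 macrophage genes and few microglial, neuronal, endothelial, oligodendrocyte or astrocyte counts. The rule asked for a summed level of Mrc1, Pf4, F13a1 and Ms4a7 of at least 8 unique molecular identifiers (UMIs, each standing for 1 counted RNA molecule) per 10000 UMIs of the cell, with at least 2 of the 4 genes detected. P2ry12 and Tmem119 together had to stay under 8 per 10000, Slc17a7 at 1 UMI or less, and Cldn5, Mog and Gja1 together at 5 per 10000 or less. In all, 223 cells met the rule among 44180 barcodes that passed the gene and mitochondrial limits, 75 from the estrus library, 89 from the diestrus library and 59 from the male library. The 3 cells nearest to the marker limit on the inside lay at 9.57, 11.1 and 15.1 per 10000, and the 3 nearest on the outside at 7.95, 6.66 and 4.96. The values of the rule genes are therefore a description of the choice and support nothing.

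Border-associated macrophages sit between blood vessels, cerebrospinal fluid and the brain tissue, where they take up proteins, lipids and dying cells through scavenger receptors and lectins. They differ from microglia, the macrophages inside the tissue, in lacking microglial genes such as P2ry12, Tmem119 and Sall1 at high level and in carrying the mannose receptor Mrc1 and the hemoglobin scavenger Cd163. Within them, cells with the hyaluronan receptor Lyve1 and cells with MHC class II, the molecules that present antigen to helper T cells, are usually described as separate states.

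The series holds 3 single-cell RNA libraries, 1 of estrus females, 1 of diestrus females and 1 of males, each made from the pooled prefrontal tissue of 2 mice. The labels used here name no strain, age, allele or treatment. The tissue was digested with papain, cleaned on 30% Percoll, and 15000 cells were loaded per library for 10x Genomics 3′ version 3.1 chemistry. The cells are labelled as total neurons, but no sort for neurons is described, and 14476, 18052 and 19555 barcodes are present for estrus, diestrus and male. With 1 library per group, a difference between groups cannot be told apart from a difference between libraries or mice, no test was possible, and every interval below covers counting error only.

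The macrophages were sequenced to different depths, with a median of 5403 UMIs per cell in estrus, 4167 in diestrus and 2519 in male. Their summed UMIs were 507674, 401580 and 172758, so that 1 UMI equalled 2.06, 2.61 and 6.05 CPM (counts scaled to a sum of 1000000 over nuclear genes), and a count of 0 allowed 6.19, 7.83 and 18.1 CPM. Microglia of the same libraries followed the same order, with medians of 5414, 4626 and 3501 UMIs. Macrophages made up 0.578% of passing barcodes in estrus (exact Clopper-Pearson 95% interval 0.455 to 0.724), 0.599% in diestrus (0.481 to 0.737) and 0.361% in male (0.275 to 0.465). Of macrophages plus microglia, macrophages were 2.45% (estrus), 4.12% (diestrus) and 3.14% (male), so the order of the libraries depended on the denominator. Dissociation and Percoll recovery can set such shares, and their part was not tested. Xist, the RNA of the inactive X chromosome, stood at 615 CPM in estrus macrophages, 642 in diestrus and 0 in male, and the Y-linked Eif2s3y at 0, 0 and 72.6 CPM, which matches the labels.

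The 4 rule genes differed from microglia by orders of magnitude, which follows from the choice of both classes. Macrophages were chosen as high in these genes, and the microglia-rule cells as low in them. Mrc1 (chr2:14229392-14332057, mm10) stood at 3720 CPM in estrus macrophages, 3495 in diestrus and 2988 in male, against 7.68, 6.81 and 2.83 in microglia. Pf4 (chr5:90772435-90773383), a platelet-type chemokine, stood at 2997, 4907 and 3950 CPM, and F13a1 (chr13:36867178-37050244), the coagulation factor XIII A subunit, at 2248, 1517 and 1440. Ms4a7 (chr19:11321039-11336146), a membrane protein of tissue macrophages, was at 824, 958 and 1289 CPM. All 4 rule genes were detected in 65 of 75, 67 of 89 and 37 of 59 cells, an order that follows the depth.

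The markers outside the rule did not themselves choose the cells. Macrophages and microglia-rule cells were set apart by opposite limits on the rule genes, so differences in related markers also describe the choice. The marker lists were chosen with earlier results of these data known. Cd163 (chr6:124304656-124330527) stood at 661, 603 and 587 CPM and was detected in 62.7%, 59.6% and 55.9% of the cells, against 0.06, 0 and 0 CPM in microglia. Lyve1 (chr7:110850607-110863239) stood at 758, 874 and 260 CPM, against no more than 0.198 in microglia of any library. Of 20 other macrophage markers, 13 were at least 2 higher on the log2 scale than in microglia in all 3 libraries, against 3.43% of all 4493 measured genes. They included Cbr2, a carbonyl reductase (434, 514 and 544 CPM), and Clec10a, a galactose-binding lectin (186, 235 and 200 CPM). Of 16 microglia markers, 13 were lower by the same measure, against 3.47%. Csf1r, the receptor that both cell types need to survive, stood at 1156, 1180 and 1373 CPM against 2007, 1921 and 2001 in microglia.

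**Figure D1:**
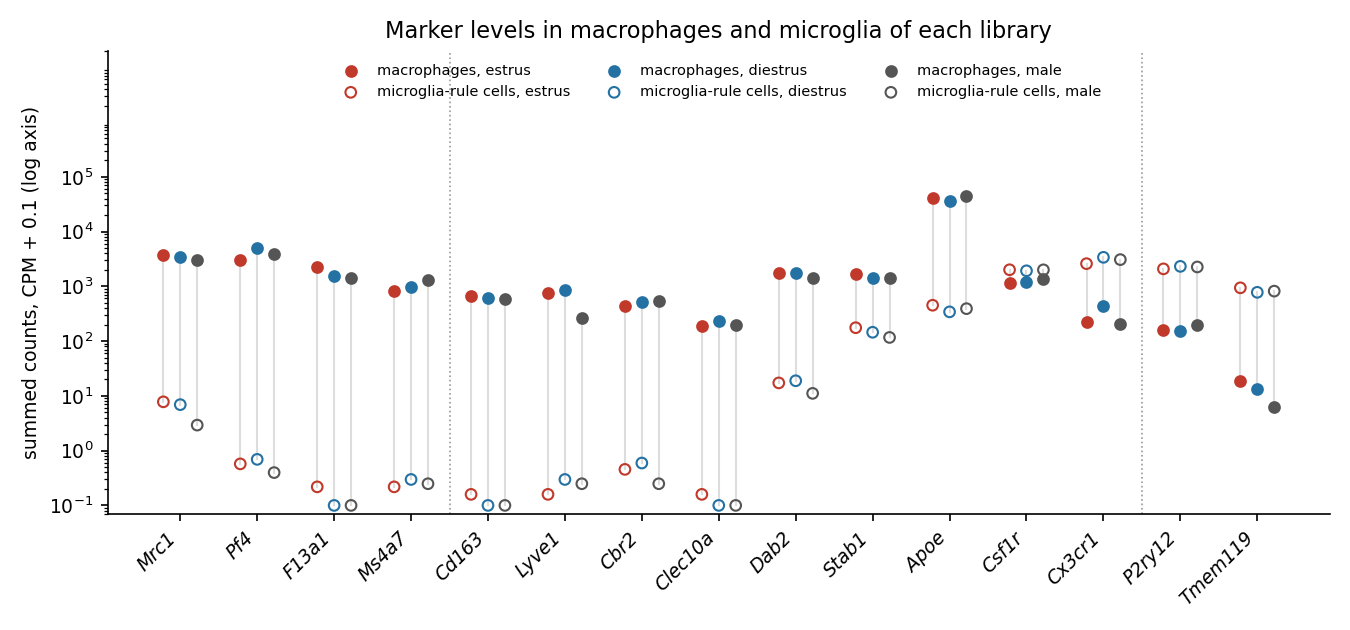
Summed level in CPM plus 0.1 on a log axis for 15 genes, with filled points for macrophages and open points for microglia-rule cells, 1 point per library. The 4 genes left of the first dotted line and the 2 right of the second were used by the rule, and the 9 between them were not. Lyve1 in male macrophages (260 CPM) lies under the other libraries, while Apoe, Dab2 and Stab1 nearly coincide.

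Markers of other blood-borne cells were low or shared with macrophages. The monocyte list summed to 33.0, 120 and 18.1 CPM with 6, 6 and 9 of its 10 genes at 0, and Ly6c2, Plac8 and Chil3 had no UMI in any library. The neutrophil list summed to 51.6, 23.5 and 60.5 CPM with 6, 8 and 7 of 9 genes at 0. The dendritic cell list summed to 246, 347 and 363 CPM with 5, 5 and 6 of 9 genes at 0, most of it from Cd209a and Siglech. The lymphocyte list had 8 of 9 genes at 0 in each library, and the 5 mast cell genes were at 0 throughout. RNA of red blood cells, neurons and glia was present, in some libraries mostly in a few cells and in others spread over many. Hemoglobin-type genes summed to 50754 CPM in the estrus library, 1681 in diestrus and 853 in male, and 6 estrus cells held 99.1% of the estrus sum, which without them was 561. One estrus cell held 74.0% of the UMIs of the neuron list, while 6 diestrus cells held 35.5% and 5 male cells 13.2%. One male cell held 75.4% of the oligodendrocyte list, and no estrus or diestrus cell reached 50 UMIs per 10000 of it. Fibroblast markers summed to 285, 146 and 42.3 CPM with 0, 0 and 2 of 6 genes at 0, and mural cell markers to 376, 94.0 and 42.3 CPM, both highest in estrus, where the top cell for Dcn held 76.8% of its UMIs and the top cell for Vtn 67.9%. In total 22 cells, 9, 7 and 6 by library, had a marker list of another cell type at 50 UMIs per 10000 or more.

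Setting the macrophages beside microglia describes the choice, since the rule used this contrast. With the rule genes left out, 154 genes were higher by log2 2 or more in all 3 libraries and 156 lower. The lectins and pattern receptors, which bind microbial and host molecules, had 10 of 19 measured members higher. Among them were Clec4n (268, 397 and 302 CPM), Cd209f (242, 525 and 484) and Clec12a (138, 164 and 151), each at 0.118 CPM or less in microglia. Scavenger and endocytic receptors had 9 of 14 higher. Cd36, a receptor for oxidized lipid, stood at 489, 355 and 351 CPM against at most 0.446 in microglia, and Dab2, an endocytic adaptor, at 1786, 1757 and 1446 against at most 18.8. Stab1, which clears modified lipoproteins, stood at 1647, 1425 and 1422 CPM against 175, 145 and 117.

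Chemokines had 7 of 13 measured members higher than in microglia. Ccl7, which attracts monocytes, stood at 1817, 1965 and 865 CPM against 3.49, 3.65 and 0.149, and Cxcl2, which attracts neutrophils, at 859, 1373 and 460 against at most 3.95. The lipid carrier Apoe stood at 41027, 36389 and 44179 CPM against 451, 342 and 391. Igf1, a growth factor, stood at 260, 258 and 309 CPM against at most 2.67. Wfdc17, a secreted protein of activated macrophages, led the genes outside the rule with 832, 1446 and 1524 CPM against at most 1.09. Other lists differed less: of 17 lysosomal genes 1 was higher and 1 lower, of 7 MHC class I genes none passed in either direction, and the complement genes C1qa, C1qb and C1qc stood at 2810 to 5813 CPM in macrophages and 3533 to 7043 in microglia. The lowest genes included Gm2629 (0 CPM in all 3 libraries against 510, 508 and 427 in microglia), Adora3, an adenosine receptor, and Klk8, a serine protease, both also at 0.

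MHC class II RNA was high in 11 macrophages and low in the other 212. The sum of H2-Aa, H2-Ab1, H2-Eb1 and Cd74 was at 20 UMIs per 10000 or more in 3 estrus cells (4%, Clopper-Pearson 0.833 to 11.2), 5 diestrus cells (5.62%, 1.85 to 12.6) and 3 male cells (5.08%, 1.06 to 14.1). A cut on a score is a range, not a type. The 11 cells held 98.5%, 98.8% and 97.4% of all UMIs of the 4 genes, which follows in part from the cut on these genes. Between 10 and 40 lay 1 cell, a diestrus cell at 36.7 that is among the 11. It had 1 H2-Aa, 2 H2-Ab1, 0 H2-Eb1 and 2 Cd74 UMIs of 1362 UMIs in total. Lyve1 had no UMI in any of the 11, and it had one in 119 of the 212 others (56.1%, 49.2 to 62.9). At 3 counts the 0 allows up to 27.3% of cells with a Lyve1 UMI, which is no limit on cells that express the gene. The 11 cells were not shallower, with median UMIs of 5886, 7317 and 4172 against 5321, 4106 and 2488 in the other cells of the libraries. In oligodendrocyte-rule cells, set beside them, H2-Aa had a UMI in 0.346%, 0.321% and 0.282% of the cells. The most H2-Aa UMIs in 1 such cell were 18, 84 and 30, so not every one of these cells lacked the RNA.

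**Figure D2:**
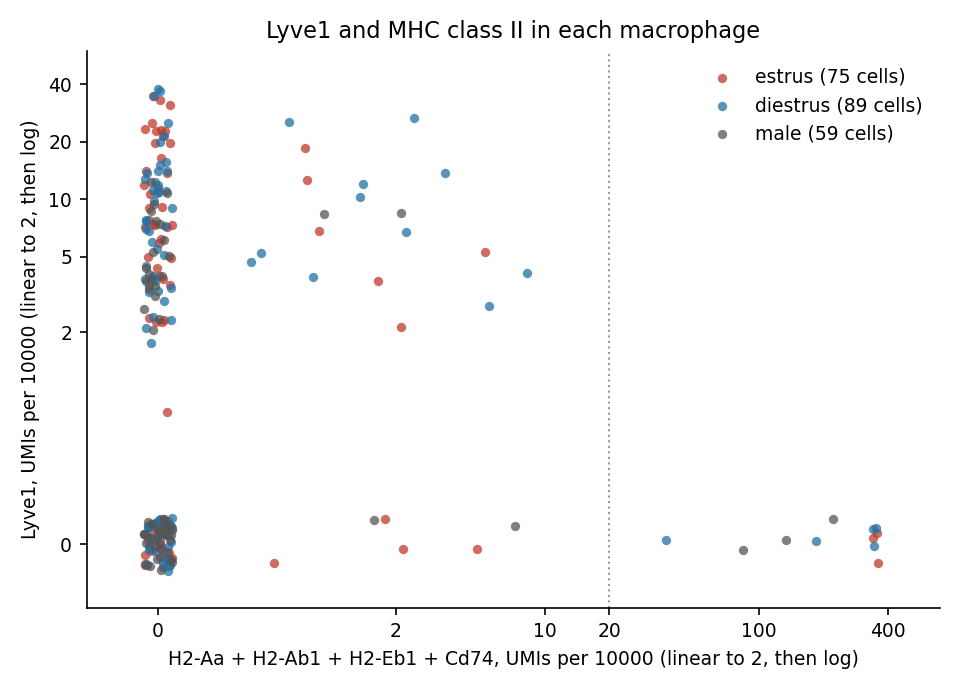
Each point is 1 macrophage, with the summed MHC class II genes on the x axis and Lyve1 on the y axis, both in UMIs per 10000 of the cell (linear to 2, then log, with jitter at 0). The 11 cells right of the dotted line at 20 have no Lyve1 UMI, and 119 of the 212 cells left of it have at least 1.

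Beyond the 4 genes of the split, 30 of 4362 measured genes (0.688%) were higher by log2 1 or more in the MHC class II high cells of all 3 libraries and 280 (6.42%) were lower. No test was made, since the same cells chose the groups, and genes near 0 in 3 or 5 cells fall on the low side easily. The highest included H2-DMa and H2-DMb1, which load peptide onto class II. H2-DMa stood at 737 against 17.2 CPM in estrus, 554 against 35.7 in diestrus, and was likewise higher in male. Mgl2, a galactose-binding lectin, stood at 638 against 92.7, 1533 against 176 and 1361 against 149 CPM, and Cd52, a leukocyte surface glycoprotein, at 638 against 51.7, 1235 against 220 and 544 against 90.7. The 10 lowest genes, Lyve1, Siglech, Nrp2, Rasal2 and 6 others, had no UMI in the 11 cells.

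The 11 cells were not alike across libraries. Ccr2, the receptor that brings monocytes into tissue, had 6 UMIs in estrus and 30 in diestrus, every one of them in an MHC class II high cell, in 3 of 3 and 4 of 5 of these cells, and none in male. Plbd1, a phospholipase-like protein of myeloid cells, had 3 and 17 UMIs, again within the high cells, and none in male. In diestrus 3 high cells held 23 of the 24 Lgals3 UMIs and 37 of the 38 S100a4 UMIs of the 223 cells, both genes that recruited monocytes and macrophages express. The 3 male cells instead held 41 Cd209f UMIs, in 3 of 3, and 42 Ccl24 UMIs, while the 8 female cells held no Cd209f and 2 Ccl24 UMIs. Their summed rule genes lay at 50.3, 144 and 111 UMIs per 10000 in male, against 107, 15.3 and 29.1 in estrus and 9.57, 23.8, 11.1, 16.6 and 36.7 in diestrus, so 5 of the 8 female cells lay under 25. Of the dendritic cell genes, Zbtb46 was at 0 in the 11 cells, Flt3 had 1 UMI, and Itgax had 4 UMIs in 2 diestrus cells. Cd209a, of the same list, had 49 UMIs in 7 of the 11 cells, and 89 UMIs in 26 of the 212 others. Its level in high against other cells was 830 against 101 CPM in diestrus and 817 against 169 in male. In estrus it was 49.1 against 62.5 CPM. Whether the female cells belong with the macrophages or with monocyte-derived or dendritic cells that passed the marker limit was not tested.

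The 212 other macrophages divided by whether Lyve1 was seen. It was detected in 44 of 72 estrus cells, 52 of 84 diestrus cells and 23 of 56 male cells. Cells with Lyve1 were deeper, with median UMIs of 5767 against 3882, 5066 against 1880 and 2856 against 1976, and a cell without a Lyve1 UMI is not shown to lack its RNA. Among 4174 measured genes, 20 (0.479%) were higher by log2 1 or more in Lyve1-detected cells of all 3 libraries and 34 (0.815%) were lower. This split was chosen after the data were seen and uses a gene of these cells, so the genes are a description.

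The genes that went with Lyve1 included complement, an Fc transporter and receptors. The 4 rule genes were also higher together on that side, at 110 against 72.0, 114 against 78.7 and 111 against 73.9 UMIs per 10000, and their part in what follows was not tested. C4b, complement component 4, stood at 178 against 45.2 CPM in estrus, 309 against 67.9 in diestrus and 294 against 63.0 in male. Folr2, the folate receptor of resident macrophages, stood at 212 against 39.6, 788 against 231 and 307 against 139 CPM. Fcgrt, the neonatal Fc receptor that recycles antibody and albumin, stood at 400 against 124, 411 against 177 and 494 against 239. These 3 genes are among those selected as past the fold on the Lyve1 side in every library, so that agreement follows from the selection. Ccr1, a chemokine receptor, stood at 132 against 50.9, 259 against 81.5 and 134 against 25.2 CPM, and Lgals3bp, a secreted galectin-binding protein, at 87.0 against 17.0, 160 against 40.8 and 134 against 25.2. Gpc5, a glypican, had UMIs in Lyve1-detected cells alone (160, 122 and 374 CPM), but it did not pass once the cell with most of its UMIs was left out on each side.

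Cd163 did not differ by the fold between the sides in any library. It was detected in 63.6% of Lyve1-detected and 64.3% of undetected cells in estrus, 76.9% and 37.5% in the diestrus library and 52.2% and 57.6% in male. In diestrus its level was 678 CPM against 639, at median depths of 5066 and 1880 UMIs. The lower side held Fabp5, a fatty acid carrier (38.3 against 79.2, 68.6 against 190 and 93.5 against 189 CPM), and the neuronal genes Syp, Syn1 and Gap43. Without the top cell on each side, Fabp5, Gap43 and Syn1 were no longer past the fold in all libraries, and their estrus ratios turned positive (0.14 for Fabp5 and 3.52 for Syn1), while Syp still passed. With the top cell of each gene left out on each side, 55 genes were higher and 13 lower, of which 15 and 8 were among the 20 and 34.

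**Figure D3:**
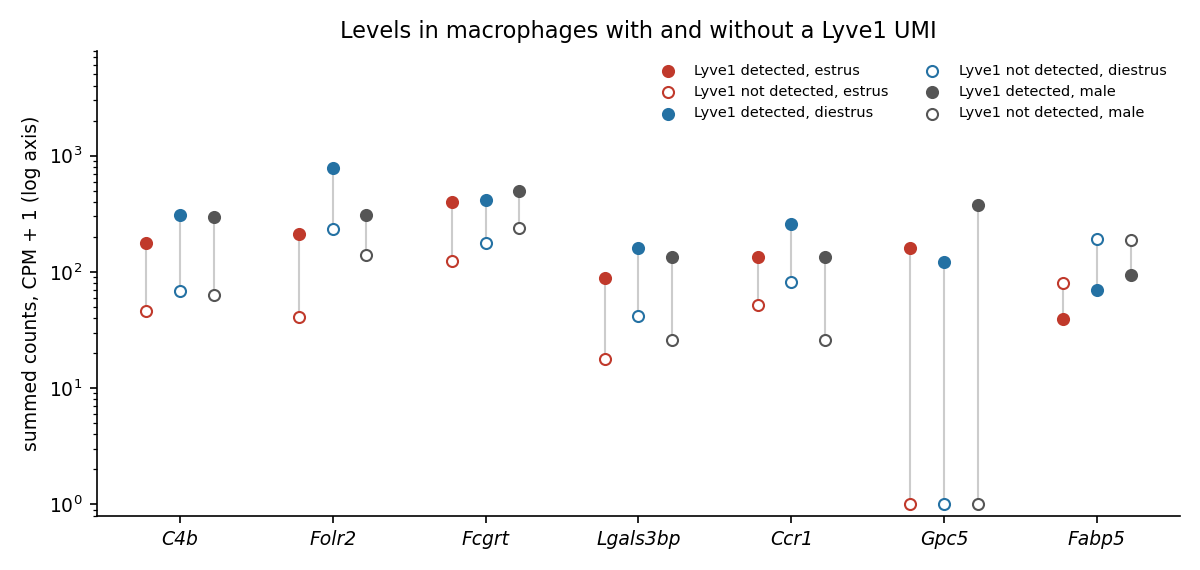
Summed level in CPM plus 1 on a log axis for 7 genes in macrophages with a Lyve1 UMI (filled) and without one (open), MHC class II high cells left out, by library. C4b, Folr2, Fcgrt, Lgals3bp and Ccr1 are higher with Lyve1 in each library, Gpc5 is at 0 without it, and Fabp5 is lower with it, which in estrus turned to 0.14 on the log2 scale without the top cells.

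Between libraries, the level of every gene was compared as a log2 ratio with 1 CPM added to each side, and a gene counted as past the fold at 1 or more in size. For estrus over diestrus, 178 of 3572 measured genes (4.98%) were higher and 216 (6.05%) lower. For estrus over male, 239 of 3621 (6.6%) were higher and 253 (6.99%) lower, and for diestrus over male 159 of 3308 (4.81%) were higher and 152 (4.59%) lower. These shares are the background for every list below. The comparisons with male rest on fewer UMIs and on the scale used. With edgeR's TMM factors the median of all genes moved up by 0.19 in both, and the counts became 343 higher and 161 lower for estrus over male and 261 higher and 87 lower for diestrus over male. DESeq2's size factors gave 328 and 168, and 240 and 88. Any 2 of the comparisons share a library, so their values are set side by side and not counted as support for each other.

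Lyve1 was the largest library difference among the 6 marker genes. Its UMIs numbered 367 (estrus), 335 (diestrus) and 43 (male), and the most in 1 cell were 38, 41 and 6. The log2 ratio was 1.54 for estrus over male (exact conditional binomial 95% interval 1.08 to 2.03), 1.75 for diestrus over male (1.29 to 2.24) and -0.21 for estrus over diestrus (-0.42 to 0.01). It was detected in 58.7% of estrus cells (46.7 to 69.9), 58.4% of diestrus cells (47.5 to 68.8) and 39.0% of male cells (26.6 to 52.6). Lyve1 was thus lower in the male library in level, while the intervals of the shares overlapped. With each cell thinned to 2000 UMIs, which kept 72, 70 and 37 cells, the shares were 47.2%, 54.3% and 37.8%, and the thinned intervals overlapped as well. In oligodendrocyte-rule cells Lyve1 had no UMI among 1447, 1557 and 2838 cells. Cd163, in contrast, was near equal, with log2 ratios of 0.17 for estrus over male and 0.04 for diestrus over male.

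**Figure D4:**
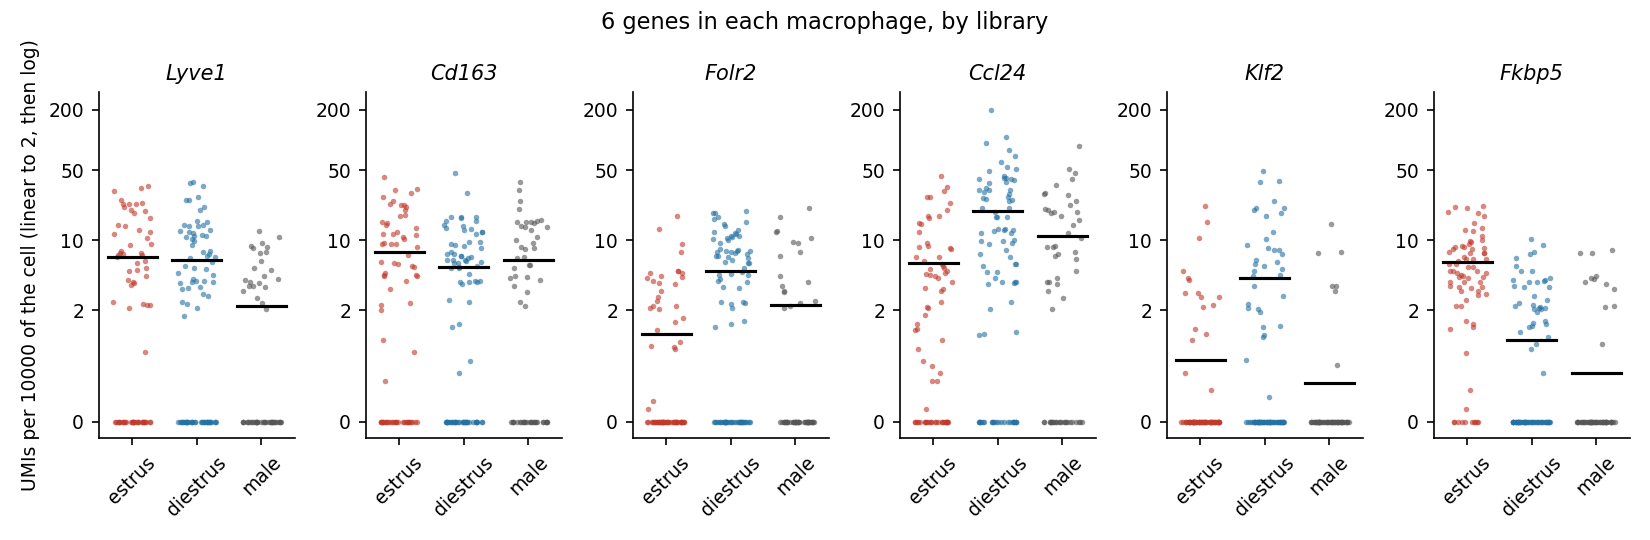
UMIs per 10000 of the cell (linear to 2, then log) for 6 genes in each macrophage by library, with a black bar at the mean over cells. Lyve1 points reach lower in male, Ccl24, Folr2 and Klf2 lie higher in diestrus, Fkbp5 lies higher in estrus, and the Cd163 bars lie close to each other.

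Other receptors were unequal too. Colec12, a scavenger receptor with a lectin domain, stood at 421, 230 and 115 CPM and was detected in 54, 36 and 14 cells, with a log2 ratio of 1.86 for estrus over male against 0.04 in microglia. In all, 3 of 14 measured scavenger receptors were higher and none lower for estrus over male, Mertk being the third. Mrc1, a rule gene, is counted among the 14 but not among the 3. Folr2 stood at 140, 585 and 242 CPM, a log2 ratio of -2.05 for estrus over diestrus (-2.47 to -1.66) and 1.27 for diestrus over male. It was detected in 30, 54 and 18 cells and was highest in diestrus. For estrus over diestrus 4 of 19 lectins and pattern receptors were lower, Mgl2 (116 against 342 CPM), Cd209f (242 against 525), Cd209a and Clec4a2, and Tlr7 was higher. Without the MHC class II high cells the ratios of Mgl2 and Cd209a went from -1.56 and -1.61 to -0.91 and -0.69, under the fold, and Mgl2 was at -0.41 with cells thinned. Cd14, a receptor for bacterial lipopolysaccharide, stood at 842, 1010 and 442 CPM, with a ratio of 1.19 for diestrus over male.

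For estrus over diestrus, 7 of 14 measured chemokines were lower and none higher. Their median was -0.91, against 0.02 for the same list in microglia and -0.02 for all genes in macrophages. Pf4, a rule gene, is counted among the measured chemokines of each comparison and in the medians, but not among the 7. Ccl24, which attracts eosinophils, stood at 582, 2362 and 1161 CPM, a ratio of -2.02 for estrus over diestrus and 0.06 in microglia. It was detected in 66.7%, 73.0% and 59.3% of the cells, so the level differed more than the share of cells with a UMI. Ccl8 stood at 51.6, 214 and 145 CPM, and Cxcl1 at 33.0, 287 and 181 CPM in 6, 11 and 7 cells. Ccl12, a monocyte attractant, stood at 692, 1493 and 1712 CPM, Ccl9 at 128, 342 and 42.4, and Ccl6 at 66.1, 180 and 48.4. The seventh was Cxcl10. With cells thinned to 2000 UMIs the estrus over diestrus ratios of Ccl9 and Ccl6 went from -1.41 and -1.43 to -0.47 and -0.53, and without the cells of other markers those of Ccl6 and Ccl12 were -0.90 and -0.85. Ccl8, Ccl24, Cxcl1 and Cxcl10 were past the fold in all 13 settings. The main setting is counted among the 13, here and below. Settings that change only the filter on low values leave a ratio as it is by construction.

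Not all chemokines were lowest in estrus. Ccl2, which attracts monocytes, stood at 1600, 1326 and 1107 CPM and Ccl3 at 888, 731 and 811, neither past the fold in any comparison. For diestrus over male, 5 of 14 were higher, Ccl6, Ccl7, Ccl9, Ccl24 and Cxcl2, and none lower, with a median of 0.61. For estrus over male 2 of 13 were higher, Ccl7 (1.07) and Ccl9 (1.57), and 3 lower, Ccl8 (-1.47), Ccl12 (-1.31) and Cxcl1 (-2.42). Ccl8 changed sign in 1 of 13 settings, and Ccl12 was past the fold in 10 of them.

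Early response genes, which dissociation and handling also raise, were on balance lower in estrus than in diestrus macrophages. For estrus over diestrus 6 of 18 were lower and Rgs1 was higher, with a median of -0.59, while in microglia the median of the same list was 0.54. Klf2, a Krüppel-like factor, stood at 97.0, 472 and 90.7 CPM, a ratio of -2.27 for estrus over diestrus against -0.60 in microglia. Atf3, a stress-induced factor, stood at 209, 820 and 387 CPM (-1.97 against 0.06), and Junb at 789, 1608 and 551 (-1.03 against 0.73). Nr4a1, an orphan nuclear receptor, stood at 134, 326 and 66.5 CPM. For diestrus over male 7 of 17 were higher and none lower, with a median of 0.80 and 0.10 in microglia. Fos, at 1936, 3156 and 1857 CPM, and Jun, at 1183, 1618 and 1155, did not pass the fold in any comparison. The part of dissociation was not tested.

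**Figure D5:**
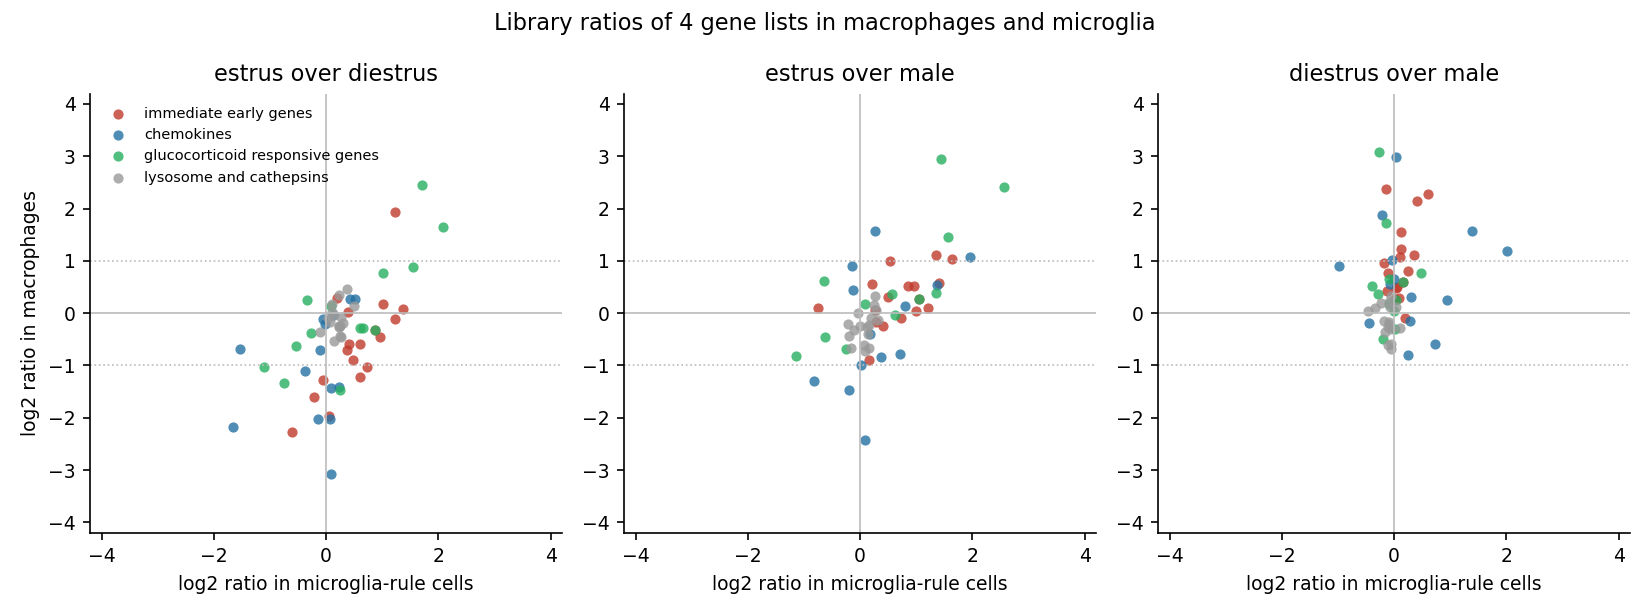
Each point is a measured member of 4 gene lists, with its log2 library ratio in microglia-rule cells on the x axis and in macrophages on the y axis, 1 panel per pair of libraries and dotted lines at 1 and -1. The medians of chemokines and early response genes lie below 0 for estrus over diestrus in macrophages (-0.91 and -0.59) and above 0 for diestrus over male (0.61 and 0.80), with single genes on the other side, while lysosomal genes cluster near the center.

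Several genes outside these lists were higher in diestrus macrophages than in either other library. Klf4, a partner of Klf2, stood at 28.9, 224 and 12.1 CPM, detected in 9, 30 and 2 cells. Crip1, a small LIM protein, stood at 26.8, 572 and 103 CPM in 8, 39 and 12 cells, and its ratio for estrus over diestrus was -4.36, between -4.49 and -2.89 over 13 settings. Without the MHC class II high cells its UMIs were 10, 138 and 16. Ahnak, a giant scaffold protein, stood at 18.6, 185 and 24.2 CPM, and Socs3, a brake on cytokine signaling, at 16.5, 117 and 18.1 CPM. These 4 genes were past the fold for estrus over diestrus in 13 of 13 settings, while their ratios in microglia lay between -0.88 and 0.61.

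Of 11 measured cytokine and inflammasome genes, 4 were higher and 1 lower for diestrus over male, 3 were higher and 1 lower for estrus over male, and 2 were lower for estrus over diestrus. Il1b, the cytokine interleukin 1 beta, stood at 59.9, 355 and 66.5 CPM but in 5, 14 and 3 cells, and 1 estrus cell held 69.0% of the estrus UMIs. Its ratio for estrus over diestrus was -2.55, and in microglia -1.49. Of 5 measured interferon response genes 1 was lower for estrus over diestrus, Ifi27l2a, at 291, 1428 and 629 CPM and a ratio of -2.29 against -0.34 in microglia. For estrus over male 2 of 4 were lower, Ifi27l2a (-1.11) and Ifitm3, at 365, 715 and 744 CPM (-1.02, past the fold in 6 of 13 settings). Tnf, the cytokine tumor necrosis factor, stood at 173, 107 and 72.6 CPM, with a ratio of 1.24 for estrus over male. Cd83, a surface marker of activated myeloid cells, and Tnfaip3, an inhibitor of NF-kappa B, were higher for estrus over male (1.08 and 1.18) and for diestrus over male (1.42 and 1.79).

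MHC class II levels followed the 11 cells. Cd74 stood at 498, 1503 and 508 CPM and H2-Aa at 363, 640 and 127 CPM. For diestrus over male 5 of 10 list members were higher, and for estrus over diestrus 4 of 9 were lower, with 1 diestrus cell holding 35.8% of the Cd74 UMIs. Without the MHC class II high cells the Cd74 ratio fell under the fold in size, from -1.59 to -0.92 for estrus over diestrus and from 1.56 to 0.66 for diestrus over male.

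Genes that respond to glucocorticoids were uneven. Fkbp5, a chaperone of the glucocorticoid receptor, stood at 553, 175 and 103 CPM and was detected in 86.7%, 42.7% and 20.3% of the cells. Its log2 ratio was 1.66 for estrus over diestrus (1.27 to 2.07) and 2.42 for estrus over male (1.72 to 3.23). Microglia gave 2.08 and 2.56, endothelial-rule cells 2.99 and 3.91 and oligodendrocyte-rule cells 2.87 and 3.33, so Fkbp5 was higher in estrus in each class measured. Zbtb16, a zinc finger repressor, stood at 147, 26.1 and 18.1 CPM, with ratios of 2.44 and 2.95 against 1.72 and 1.43 in microglia. In the same list the metallothionein Mt1 stood at 541, 1363 and 956 CPM and was lower in estrus than in diestrus (-1.33, microglia -0.75). For estrus over diestrus the list had 2 of 14 higher and 3 lower, with a median of -0.29.

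The estrogen and progesterone receptors were scarce. Esr1, the estrogen receptor alpha, had 11, 10 and 2 UMIs (22.7, 26.1 and 12.1 CPM) in 9, 5 and 2 cells, and Pgr, the progesterone receptor, had 1 UMI in diestrus. Esr2 had none. At this depth no library difference in these receptors was detectable. The glucocorticoid receptor Nr3c1 stood at 194, 191 and 200 CPM, with ratios between -0.07 and 0.04. Ncoa1, a coactivator of steroid receptors, stood at 394, 70.5 and 115 CPM in 55, 21 and 12 cells, with ratios of 2.47 for estrus over diestrus (1.90 to 3.12) and 1.77 for estrus over male (1.10 to 2.54). The ratios of Ncoa1 were 0.31 and 0.37 in microglia and between -0.23 and 0.22 in endothelial-rule and oligodendrocyte-rule cells. Over 13 settings the ratio for estrus over diestrus lay between 1.86 and 2.56.

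A few further genes were higher in estrus. Pdgfc, a growth factor for mesenchymal cells, stood at 114, 7.83 and 36.3 CPM in 27, 2 and 4 cells, and with 3 UMIs in diestrus its ratio of 3.70 had an interval of 2.24 to 6.18. Fibroblast and mural cell markers were also highest in estrus, and their part in these genes was not tested. Rcan1, a calcineurin inhibitor, stood at 219, 57.4 and 12.1 CPM in 38, 17 and 2 cells. Plin2, a lipid droplet protein, stood at 213, 112 and 78.6 CPM, with a ratio of 1.42 for estrus over male. The transcription factor Cebpb (656, 472 and 230 CPM) had a ratio of 1.51 for estrus over male, and microglia gave 1.90. Cmss1 stood at 7233, 809 and 1875 CPM, and its estrus over diestrus ratio of 3.16 was matched by 2.45 in microglia, 2.41 in endothelial-rule and 3.03 in oligodendrocyte-rule cells.

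Genes higher in the male library than in diestrus included Fnip2, a partner of folliculin (88.8, 44.4 and 175 CPM), Id2, an inhibitor of DNA binding (6.19, 33.9 and 103 CPM), and Vegfb, a vascular growth factor (82.6, 70.5 and 169 CPM). Their ratios for diestrus over male were -1.96, -1.57 and -1.25 and were past the fold in 13 of 13 settings. At 2.61 CPM per UMI in diestrus and 6.05 in male, these levels rest on few UMIs. They do not reach the filter of 100 UMIs and 100 CPM, with which 10 genes were lower in this comparison. In microglia of the same libraries the ratios lay between -0.19 and 0.27.

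In several functional groups no gene was past the fold. For the 17 measured lysosomal genes no member passed in any comparison, with medians of -0.18 for estrus over diestrus, -0.25 for estrus over male and -0.16 for diestrus over male. Ctsb, a cathepsin, stood at 2518, 2488 and 2988 CPM. The same held for the 6 Fc receptor genes, among them Fcgr3 at 568, 488 and 575 CPM, and for the 7 MHC class I genes, among them B2m at 1166, 1443 and 1276. Among iron storage genes, Ftl1 stood at 5710, 5607 and 6957 CPM and Fth1 at 7353, 8431 and 8185, while Hmox1, which degrades heme, was lower for estrus over diestrus (47.5, 96.6 and 48.4 CPM, ratio -1.01). Stab1, Dab2, Msr1 and Cd36 had ratios between -0.12 and 0.48.

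Some of the most extreme ratios came from a few cells or had ratios of like size in other classes, while Pdgfc and Klf4, given above, did neither. Of the 219 diestrus Crip1 UMIs, 81 lay in 3 MHC class II high cells. Its ratio for estrus over diestrus stayed past the fold without the MHC class II high cells. Hbb-bs (27641, 668 and 381 CPM) and the other hemoglobin genes led estrus, with 38.8% of the Hbb-bs UMIs in 1 cell. Sst, an interneuron peptide, had 98.8% of its estrus UMIs in 1 cell, Kcnip4 had 82.9% of its diestrus UMIs in 1 cell, and Mal, a myelin gene, had 84.9% of its male UMIs in 1 cell. Without the 22 cells that carried another cell type's markers, Hbb-bs went from 5.37 to 0.39 for estrus over diestrus and from 6.18 to -0.14 for estrus over male. Sst went from 3.24 to -2.65 for estrus over diestrus, Kcnip4 from 2.96 to 0.65 for diestrus over male, and Mal from -3.46 to -0.55 for estrus over male. Nrgn, a neuronal gene, stood at 97.0, 423 and 629 CPM, and its ratio of -2.68 for estrus over male stood beside -2.29 in microglia, -2.91 in endothelial-rule and -2.07 in oligodendrocyte-rule cells. Without the same 22 cells, 128 of the 178 higher and 143 of the 216 lower genes for estrus over diestrus remained past the fold.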

How the data were processed

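The 3 libraries were deposited as filtered barcode-by-gene matrices of raw UMI counts, which the authors made with Cell Ranger (version 3.0.2 and genome mm10 per the submitters' processing notes, version 7.0.0 per the file headers). Of 32285 genes, 32235 matched GENCODE vM21. Counts were summed over the macrophages of a library and scaled to a sum of 1000000 over nuclear genes (CPM). Candidates for library ratios had at least 30 UMIs and a mean of 50 CPM. Python 3.11.15, numpy 2.4.6, scipy 1.17.1 and pandas 2.3.3 were used, with scanpy 1.11.5 for Scrublet scores, edgeR 4.0.16 and DESeq2 1.42.0 for alternative scaling factors, and no significance test was run. The computation of the ratios was checked on simulated counts.

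Microglia-rule cells had P2ry12 and Tmem119 at 8 per 10000 or more, both detected. Endothelial-rule cells had Cldn5 at 8 or more, and oligodendrocyte-rule cells Mog at 2 or more with Mag detected. Each class was held low in the markers of the others. No doublet was removed. The automatic Scrublet threshold called 681, 555 and 0 barcodes in estrus, diestrus and male. At a fixed limit of 0.3, 1 macrophage, from diestrus, scored above it. The libraries shared 81, 68 and 97 barcode sequences pair by pair, none of them a macrophage.

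The members and gene lists were chosen with earlier results of these data known. Named genes were, for each pair of libraries, the 8 highest and 8 lowest ratios among candidates seen in at least 10% of the macrophages of the higher library, and the 4 highest and lowest differences from the microglia ratio. To these came the 20 highest and 10 lowest genes over microglia, the 10 highest and lowest by MHC class II, list members with the highest level or past the fold, the markers and the steroid receptors. Some genes that this rule names are not reported here. Alternatives changed the scaling, the filters, the added CPM, the rule limits, the depth and the cells included. Those that left out cells with other markers, MHC class II high cells or the top cell of a gene, and the Lyve1 split, were chosen after seeing the data.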

Additional observations from a re-analysis of the deposited data

How the results depend on the processing

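With none of Slc17a7, Cldn5, Mog and Gja1 allowed, the macrophage shares became 0.408% in estrus, 0.364% in diestrus and 0.245% in male. The counts of genes past the fold moved with the filters. For estrus over diestrus they were 277 higher and 382 lower with each cell weighted alike, 2828 and 2957 with no filter, 67 and 106 at 100 UMIs and 100 CPM, and 103 and 138 with cells thinned to 2000 UMIs. In the same comparison 273 were higher with none of those 4 genes allowed, 341 were lower without the top cell of each gene, and 23 list members were higher with each cell weighted alike. For estrus over male, 161 were lower with TMM factors, 168 with DESeq2 factors and 395 with each cell weighted alike. No filter gave 3868 and 2984 there, the stricter filter 84 and 48, and thinning 96 and 92. For diestrus over male, TMM factors gave 261 and 87, DESeq2 factors 240 and 88, no filter 3531 and 2624, the stricter filter 42 and 10, and thinning 54 and 37, and 80 were lower with none of the 4 genes allowed. Fewer genes or cells enter the stricter and thinned settings by construction, and the cause of the other moves was not tested.

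Counting a cell as positive at 2 UMIs or more gave Lyve1 44.9% in diestrus and 11.9% in male, Cd163 46.1% and 35.6%, and Cd74 5.33% in estrus and 7.87% in diestrus. Thinning gave Cd163 45.8% and Cd74 8.33% in estrus. The Lyve1 split gave 55 higher and 13 lower without the top cells. Ccl8 for estrus over male turned to 0.75 with none of the 4 genes allowed. Sst for estrus over diestrus turned to -0.064 with each cell weighted alike, -2.65 without the cells of other markers and -3.06 without top cells, and Hbb-bs for estrus over male to -0.14 without the cells of other markers. The erythroid list's median turned to -0.55 for estrus over male and -1.07 for diestrus over male without the cells of other markers, and to -0.61 for the latter without top cells, where the oligodendrocyte median for diestrus over male was 0.024. In all, 168 summary values stayed within limits, which were the counting-error interval for shares and 1.5 times for counts, and 44 moved by more. A further 1052 values, gene ratios and list medians, also stayed within limits. For gene ratios the limit was the counting-error interval or a small fixed log2 change, and for list medians a fixed log2 change. Another 109 values, which are gene ratios and list medians, moved by more and are not all listed here. Of 49 gene ratios, 18 moved with cells thinned, 15 with none of the 4 genes allowed and 14 with each cell weighted alike. No replicate could be left out. No paired analysis was possible because each group has 1 library.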

Other observations

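A few other groups of genes can be described in the macrophages. Proliferation genes were rare: Mki67 had 8, 5 and 0 UMIs in 2, 1 and 0 cells of the estrus, diestrus and male libraries. Itga4, an integrin of leukocyte adhesion, stood at 157, 131 and 66.5 CPM against 4.43, 4.84 and 4.02 in microglia. Cx3cr1, the fractalkine receptor, stood at 221, 441 and 206 CPM, a log2 ratio of 1.10 for diestrus over male and 0.14 in microglia. P2ry13, a purine receptor of microglia, stood at 31.0, 65.3 and 127 CPM in macrophages, and its ratio for estrus over male was -0.40 in microglia. None of the 9 measured heat shock genes for estrus over diestrus was past the fold, and Hsp90aa1 stood at 500, 407 and 484 CPM. Pltp, a phospholipid transfer protein, stood at 256, 248 and 260 CPM against 15.4, 20.6 and 14.1 in microglia.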
